A study of Mus musculus with 8 samples.

Results

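The stellate cell and fibrosis genes described here are 10 of the 46078 gene identifiers in the deposited counts of mouse liver. They are named by symbol in the GRCm38 annotation, as genes of known roles in stellate cells and fibrosis, and no threshold on their values was used. *Lrat*, *Reln*, *Des* and *Pdgfrb* stand for the identity of hepatic stellate cells, *Col1a1*, *Col1a2* and *Col3a1* are the chains of the fibrillar collagens I and III, and *Acta2*, *Timp1* and *Tgfb1* are linked to stellate cell activation. The livers came from 4 wild-type mice (LWT; floxed *Rbfox2* alleles and no Cre) and 4 *Rbfox2* knockout mice (LΔRbfox2; the same floxed alleles with Cre under the albumin promoter). All 8 mice were given a control diet (CD), called a chow diet in another label, for 12 weeks by the labels, were fasted for 16 h, and gave 1 library per liver. The study's methods give a longer period on the diet, and the labels give no age. The albumin promoter is active in hepatocytes and not in stellate cells, so this is a hepatocyte knockout examined in whole liver. The controls lack Cre, so that the presence of Cre and the loss of *Rbfox2* cannot be told apart.

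Hepatic stellate cells lie between the sinusoidal endothelium and the hepatocytes and hold most of the body's vitamin A as retinyl esters. On injury they lose this store, proliferate in response to platelet-derived growth factor and turn into contractile, collagen-secreting myofibroblasts, a change that transforming growth factor-β promotes. They are a minor part of the liver's cells, so their transcripts are rare in RNA of whole liver. In such bulk samples, fewer stellate cells and less RNA per cell cannot be told apart.

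The total count per liver was between 37482458 and 56177588, and a gene with 3 counts had between 0.0468 and 0.0929 CPM (counts relative to library size, scaled to library size with TMM factors). These floors cover counting error only. TMM factors were 0.724 and 0.776 in LΔRbfox2 replicates 3 and 4 and between 1.02 and 1.14 in the other livers. *Rbfox2*, the deleted gene, was at 14.3 ± 3.96 CPM (SD, n = 4) in LWT livers and at 4.03 ± 1.68 CPM (SD, n = 4) in LΔRbfox2 livers, with no overlap between the genotypes. It ranged from 10.4 to 18.3 CPM and from 2.24 to 6.09 CPM, and with a log2 fold change of −1.82 its adjusted *P* was 0.504 by edgeR and 1.99e-04 by DESeq2. *Alb*, the defining hepatocyte transcript, was between 32500 and 55300 CPM in all livers. The summed level of 5 erythrocyte genes, the globin genes among them, was between 382 and 729 CPM in LWT livers and between 627 and 1530 CPM in LΔRbfox2 livers, highest in LΔRbfox2 replicates 3 and 4. Nothing in the labels says that the livers of a genotype are littermates or from separate cohorts. The tests take their error from the spread between these animals.

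No stellate cell or fibrosis gene passed the test between the genotypes. Low-count filtering kept 9 of the 10, all except *Timp1*, and 0 of these 9 had an adjusted *P* of at most 0.05 in edgeR's quasi-likelihood test, as for 0% of all 13856 genes tested. At an unadjusted *P* under 0.05 there were likewise 0 of 9 members, against 9.79% of all genes tested. By DESeq2, 10 of all genes, *Rbfox2* among them, and 0 members had an adjusted *P* of at most 0.05. The CPM values of the genotypes overlapped for all 10 members, whereas 2.28% of all genes tested did not overlap. The estimated log2 fold change was above 0 for 3 members and below 0 for 6, with a median of −0.13 beside −0.015 over all genes tested. By group, the median was −0.28 for the 4 identity genes, −0.026 for the 3 collagen genes and −0.047 for the 2 activation genes tested.

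**Figure D1:**
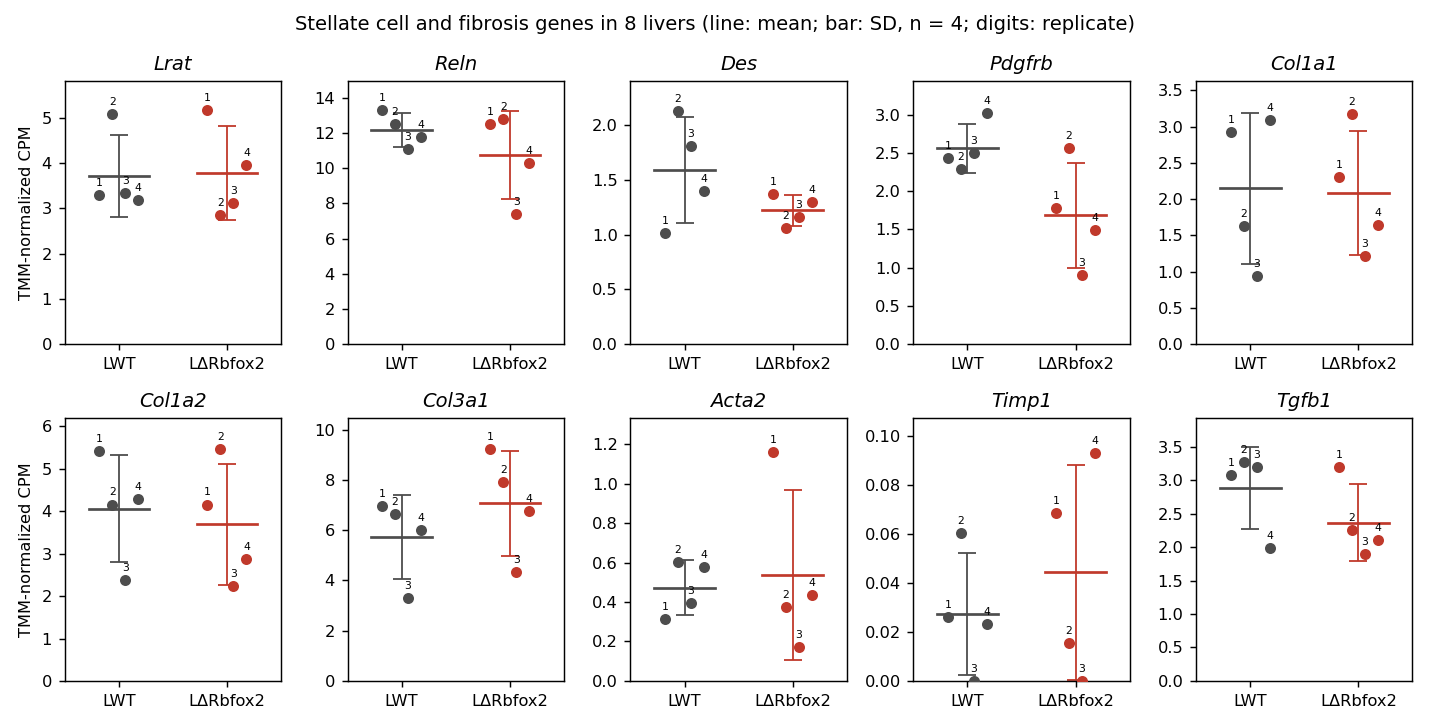
Level of each stellate cell and fibrosis gene in TMM-normalized CPM (linear axes from 0, a separate scale per gene) in the 4 LWT and 4 LΔRbfox2 livers, where points are single livers labelled with their replicate number, horizontal lines are means and bars are SD. The genotypes overlap in every panel, and *Pdgfrb* is the gene for which 3 of 4 LΔRbfox2 livers lie below every LWT liver.

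*Lrat* (ENSMUSG00000028003, minus strand of GRCm38 chr3:82892579-82903973) encodes lecithin retinol acyltransferase, the enzyme that makes the retinyl esters stored in stellate cells. In LWT replicates 1 to 4 its level was 3.29, 5.08, 3.33 and 3.18 CPM, and in LΔRbfox2 replicates 1 to 4 it was 5.16, 2.86, 3.11 and 3.96 CPM. One liver of each genotype was above 5 CPM, and of the other LΔRbfox2 livers 2 were below and 1 was above the other LWT livers. The means were 3.72 ± 0.911 and 3.77 ± 1.04 CPM (SD, n = 4), for a log2 fold change of 0.019 (edgeR adjusted *P* = 0.976). The sign of this value depended on the scaling, since it was −0.033 with upper-quartile factors. Standard errors and intervals, here and for the other genes, are those of limma-voom, whose estimate for *Lrat* was −0.007 with a standard error of 0.26 and a 95% interval from −0.58 to 0.56.

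*Reln* (ENSMUSG00000042453, minus strand of chr5:21884454-22344702) encodes reelin, a large secreted glycoprotein made by stellate cells in the liver. It had the highest CPM of the 10 genes, at 13.3, 12.5, 11.1 and 11.8 in LWT livers and 12.5, 12.8, 7.42 and 10.3 in LΔRbfox2 livers. LΔRbfox2 replicates 3 and 4 were below every LWT liver, and the other two LΔRbfox2 livers were inside the LWT range. EdgeR gave a log2 fold change of −0.18 (adjusted *P* = 0.694), and limma-voom gave −0.20 (standard error 0.20, 95% interval −0.64 to 0.25). The edgeR value was −0.068 without LΔRbfox2 replicate 3 and −0.27 without LΔRbfox2 replicate 2. Corrected for GC content and gene length it was 0.096, on the other side of 0. An antisense gene, *Gm10475*, overlaps 1.0% of its exons.

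*Des* (ENSMUSG00000026208, plus strand of chr1:75360329-75368579) encodes desmin, an intermediate filament protein of muscle and of rodent stellate cells. Its level was 1.02, 2.13, 1.81 and 1.40 CPM in LWT livers and 1.37, 1.06, 1.16 and 1.30 CPM in LΔRbfox2 livers. All LΔRbfox2 values lay inside the LWT range, toward its lower end, and they were closer together, with an SD of 0.138 CPM beside 0.483 CPM (n = 4 each). Its log2 fold change was −0.38 by edgeR (adjusted *P* = 0.585) and −0.35 by limma-voom (standard error 0.27, 95% interval −0.96 to 0.26). The edgeR value was −0.57 without LWT replicate 1 and −0.20 without LWT replicate 2. The antisense gene *Gm15179* overlaps 5.9% of the exons, and reads there are uncertain because the counting setting for strand is not given in the sources used here.

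*Pdgfrb* (ENSMUSG00000024620, plus strand of chr18:61045150-61085061) encodes the receptor through which platelet-derived growth factor drives stellate cell proliferation. It was at 2.43, 2.29, 2.50 and 3.02 CPM in LWT livers and at 1.78, 2.56, 0.902 and 1.49 CPM in LΔRbfox2 livers. Of the LΔRbfox2 livers, 3 were below every LWT liver, and replicate 2 was inside the LWT range. The LΔRbfox2 mean was 65.8% of the LWT mean (1.68 ± 0.69 beside 2.56 ± 0.317 CPM, SD, n = 4). A two-sided exact permutation test of this difference gave *P* = 0.114, where 0.0286 is the smallest that 4 livers against 4 allow. The edgeR log2 fold change was −0.59, with unadjusted and adjusted *P* values of 0.0813 and 0.523, and the limma-voom estimate was −0.64 (standard error 0.30, 95% interval −1.31 to 0.034). This was the smallest unadjusted *P* among the members.

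The *Pdgfrb* estimate depended on single livers and on 1 correction. Without LΔRbfox2 replicate 2 the log2 fold change was −0.87 (edgeR unadjusted *P* = 0.0122, adjusted *P* = 0.121), and without LΔRbfox2 replicate 3 it was −0.41 (unadjusted *P* = 0.156, adjusted *P* = 0.897). With 1 surrogate variable in the model it was −0.33 (unadjusted *P* = 0.228). The livers with the lowest *Pdgfrb*, LΔRbfox2 replicates 3 and 4, were also those with the low TMM factors and the highest erythrocyte sums. With the mean of each genotype removed, *Pdgfrb* and the erythrocyte sum had a Pearson r of −0.80 over the 8 livers, which share their libraries and scaling, and the part of these measures in the *Pdgfrb* values was not tested.

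**Figure D2:**
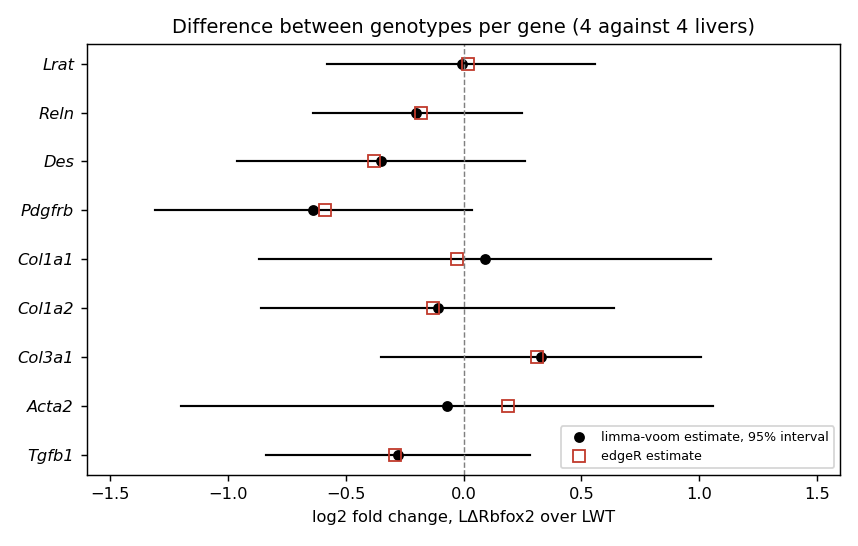
Log2 fold change of LΔRbfox2 over LWT livers (4 against 4) for the 9 tested genes, with black circles and lines for the limma-voom estimates and their 95% intervals and red open squares for the edgeR estimates. Each interval includes 0, from the narrow one of *Reln* (−0.64 to 0.25) to the wide one of *Acta2* (−1.2 to 1.06).

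The promoters of a pair of collagen genes and of *Lrat* are shown. With the mean of each genotype removed, *Col1a2* and *Col3a1* had a Pearson r of 0.89 over the 8 livers. *Lrat* had 0.04 with *Col1a2* and 0.43 with *Col3a1*, and a part of the promoter sequences in these values was not tested. The sequences are the RefSeq windows on GRCm38.p6 from 250 bases before to 50 bases after the RefSeq start, read in the direction of the gene. Windows of 8 of the 10 genes were read, all except *Col1a1* and *Pdgfrb*. Lower case is used except for matches to TATAA or CCAAT on either strand (TTATA and ATTGG on the opposite strand), which are in capitals.
Lrat, minus strand of chr3:82903925-82904224: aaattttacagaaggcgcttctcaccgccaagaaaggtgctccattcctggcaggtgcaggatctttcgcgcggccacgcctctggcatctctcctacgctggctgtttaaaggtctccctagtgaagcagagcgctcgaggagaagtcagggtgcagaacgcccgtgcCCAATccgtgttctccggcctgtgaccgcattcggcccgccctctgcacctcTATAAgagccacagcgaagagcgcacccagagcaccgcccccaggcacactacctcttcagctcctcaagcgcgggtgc
Col1a2, plus strand of chr6:4505368-4505667: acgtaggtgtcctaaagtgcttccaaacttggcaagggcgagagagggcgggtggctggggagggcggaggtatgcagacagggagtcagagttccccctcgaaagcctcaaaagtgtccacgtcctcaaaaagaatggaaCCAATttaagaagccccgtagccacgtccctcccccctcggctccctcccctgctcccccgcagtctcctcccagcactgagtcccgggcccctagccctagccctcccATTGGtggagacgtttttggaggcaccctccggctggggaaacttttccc
Col3a1, plus strand of chr1:45311288-45311587: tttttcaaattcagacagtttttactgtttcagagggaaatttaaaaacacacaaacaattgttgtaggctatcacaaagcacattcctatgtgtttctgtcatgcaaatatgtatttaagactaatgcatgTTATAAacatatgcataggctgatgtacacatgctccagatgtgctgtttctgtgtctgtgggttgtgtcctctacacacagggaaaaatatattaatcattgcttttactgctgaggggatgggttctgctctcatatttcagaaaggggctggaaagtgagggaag
*Lrat* held CCAAT from −81 and TATAA from −29, and *Col1a2* held CCAAT from −109 and its reverse complement from position 1 after the start. In *Col3a1*, TATAA from −117 and its reverse complement from −118 overlap each other. The letters GGGCGG, the core of a GC box, were found on either strand in *Lrat* and *Col1a2* and not in this window of *Col3a1*. Of the 32851 RefSeq promoter windows of this length, 24.9% held TATAA, 37.4% CCAAT and 35.7% GGGCGG on either strand, so these matches are common and are given as a description of the sequence.

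The type I collagen genes had nearly the same mean level in both genotypes but varied widely between livers of the same genotype. *Col1a1* (ENSMUSG00000001506, plus strand of chr11:94936224-94953042) encodes the α1 chain, and was at 2.93, 1.63, 0.936 and 3.09 CPM in LWT livers and 2.31, 3.17, 1.22 and 1.64 CPM in LΔRbfox2 livers. High and low livers occurred in both genotypes, with the highest value in LΔRbfox2 replicate 2 and the lowest in LWT replicate 3. By edgeR the log2 fold change was −0.026 (adjusted *P* = 0.979), and by limma-voom it was 0.089 (standard error 0.43, 95% interval −0.87 to 1.05). The edgeR value also turned sign under corrections, for example to 0.27 with the correction for GC content and gene length.

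*Col1a2* (ENSMUSG00000029661, plus strand of chr6:4504814-4541544) encodes the α2 chain that is built into the same molecule. Its level was 5.43, 4.16, 2.39 and 4.28 CPM in LWT livers and 4.16, 5.48, 2.24 and 2.88 CPM in LΔRbfox2 livers, so that the lowest value of each genotype was again in replicate 3. Its limma-voom estimate was −0.11 (standard error 0.34, 95% interval −0.86 to 0.64). The edgeR log2 fold change was −0.13 (adjusted *P* = 0.866), and it turned to 0.15 with the correction for GC content and gene length.

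*Col3a1* (ENSMUSG00000026043, plus strand of chr1:45311538-45349706) encodes the single chain type of collagen III, which forms fine reticular fibres. It was at 6.98, 6.63, 3.31 and 6.01 CPM in LWT livers and at 9.23, 7.93, 4.33 and 6.78 CPM in LΔRbfox2 livers. LΔRbfox2 replicates 1 and 2 were above every LWT liver, and the others were inside the LWT range. By limma-voom the log2 fold change was 0.33 (standard error 0.30, 95% interval −0.35 to 1.01). The edgeR value was 0.31 (adjusted *P* = 0.657), and it was above 0 under every alternative tried, from 0.12 without LWT replicate 3 to 0.56 with the replicate block and the correction for GC content and gene length. A microRNA gene on the same strand, *Gm47302*, overlaps 1.4% of its exons.

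The ratio of the type I chains was compared per kilobase of merged exons, since the mature molecule holds more α1 than α2 chains. The *Col1a1* to *Col1a2* ratio of levels per kilobase was 1.02, 0.741, 0.741 and 1.36 in LWT livers and 1.05, 1.1, 1.03 and 1.08 in LΔRbfox2 livers. The LΔRbfox2 ratios were all inside the LWT range and closer together. The means were 0.966 ± 0.296 and 1.06 ± 0.0279 (SD, n = 4). The means of the log2 ratios differed by 0.19 (two-sided exact permutation test, *P* = 0.314). With a liver left out this difference was between 0.075 (without LWT replicate 2 or 3) and 0.37 (without LWT replicate 4, exact permutation *P* = 0.0571). With the longest transcript of each gene as its length the means were 0.460 ± 0.141 and 0.507 ± 0.0133, because the merged exons of *Col1a2* span 12426 bases and its longest transcript 5348. The absolute ratio therefore rests on the length chosen, and the comparison between genotypes does not.

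*Acta2* (ENSMUSG00000035783, minus strand of chr19:34241090-34255590) encodes α-smooth muscle actin, the usual marker of myofibroblasts and a component of vascular smooth muscle. Its counts were 12, 30, 19 and 25 in LWT livers and 51, 24, 6 and 14 in LΔRbfox2 livers, or 0.314, 0.603, 0.395 and 0.576 CPM and 1.16, 0.375, 0.174 and 0.433 CPM. LΔRbfox2 replicates 1 and 3 were the highest and the lowest of all 8 livers. The edgeR log2 fold change was 0.19 (adjusted *P* = 0.878), and the limma-voom estimate had the opposite sign, −0.07 (standard error 0.51, 95% interval −1.2 to 1.06). Without LΔRbfox2 replicate 1 the edgeR value turned to −0.52.

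*Timp1* (ENSMUSG00000001131, plus strand of chrX:20870166-20874735) encodes a secreted inhibitor of matrix metalloproteinases that is made in quantity by activated stellate cells. It had 1, 3, 0 and 1 counts in LWT livers and 3, 1, 0 and 3 counts in LΔRbfox2 livers. Both genotypes were at or under the 3-count floor in every liver, so no fold change is given, and a difference was not detectable at this depth.

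*Tgfb1* (ENSMUSG00000002603, plus strand of chr7:25687002-25705077) encodes transforming growth factor-β1, the ligand that induces collagen synthesis, and is made by several cell types of the liver. It was at 3.08, 3.27, 3.20 and 1.98 CPM in LWT livers and 3.20, 2.26, 1.89 and 2.11 CPM in LΔRbfox2 livers. LWT replicate 4 stood below the other LWT livers and LΔRbfox2 replicate 1 above the other LΔRbfox2 livers, which made the genotypes overlap. Its log2 fold change was −0.29 by edgeR (adjusted *P* = 0.642) and −0.28 by limma-voom (standard error 0.25, 95% interval −0.84 to 0.28). It was below 0 under every alternative tried, between −0.46 and −0.17.

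Ordered by CPM per kilobase of merged exons in LWT livers, the levels were *Lrat* 0.695 ± 0.17, *Col3a1* 0.584 ± 0.17, *Tgfb1* 0.572 ± 0.121, *Reln* 0.513 ± 0.0395 and *Pdgfrb* 0.467 ± 0.0579 (SD, n = 4). Further down the order were *Des* at 0.424 ± 0.129, *Col1a1* at 0.327 ± 0.158, *Col1a2* at 0.327 ± 0.101, *Acta2* at 0.215 ± 0.0638 and *Timp1* at 0.0308 ± 0.028 CPM per kilobase. Neighbours in this order overlapped in their LWT livers, except that *Acta2* (0.143 or more) was above *Timp1* (0.0679 or less) in every LWT liver. By merged exons, *Lrat* was above *Reln*, *Pdgfrb*, *Des* and both type I collagen genes in every LWT liver, at 0.594 CPM per kilobase or more. In LΔRbfox2 livers *Col3a1* and *Lrat* led at 0.72 ± 0.212 and 0.705 ± 0.194 CPM per kilobase. The order also depended on the length used. With the longest transcript as length, *Tgfb1*, *Reln* and *Col3a1* led in LWT livers with 1.12, 1.04 and 1.03 CPM per kilobase. By that length *Reln* (0.951 or more) was above *Lrat* (0.95 or less) in every LWT liver. The LWT ranges of *Des* (0.336 to 0.703) and *Col1a2* (0.447 to 1.02) then overlapped that of *Lrat*.

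Across livers the members did not vary as 1 group. With the mean of each genotype removed from log2 CPM, 28 of the 36 pairs of tested members had a Pearson r above 0 over the 8 livers, with a median of 0.47. These values share libraries and scaling and are given as a description. The highest r were 0.92 for *Col1a1* with *Col1a2* and 0.89 for *Col1a2* with *Col3a1*, and *Col1a1* with *Col3a1* had 0.82. The last was 0.64 without LWT replicate 3, and with a liver left out the first was between 0.87 and 0.98. The identity genes were not uniform. *Reln* and *Pdgfrb* went with each other (r = 0.85) and with the collagens (*Reln* with *Col1a2*, r = 0.84, and *Pdgfrb* with *Col1a2*, r = 0.71), but the r of *Reln* with *Pdgfrb* was 0.46 without LΔRbfox2 replicate 3. *Lrat* went with *Des* (r = 0.66), *Acta2* (r = 0.74) and *Tgfb1* (r = 0.64), and had r of 0.43 with *Col3a1*, 0.04 with *Col1a2*, −0.14 with *Col1a1* and −0.10 with *Pdgfrb*. Single livers moved these values. Without LWT replicate 2, *Lrat* with *Des* had 0.43, without LΔRbfox2 replicate 2, *Lrat* had 0.11 with *Col1a1* and 0.42 with *Pdgfrb*, and without LΔRbfox2 replicate 3, −0.33 and −0.66. *Lrat* with *Reln* had 0.28, 0.69 without LΔRbfox2 replicate 2, and values near 0 without LΔRbfox2 replicate 1 (−0.0051) or 3 (0.00048), so the division between identity genes depended on single livers. *Des* and *Col1a1* had the lowest r of all pairs, −0.60.

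**Figure D3:**
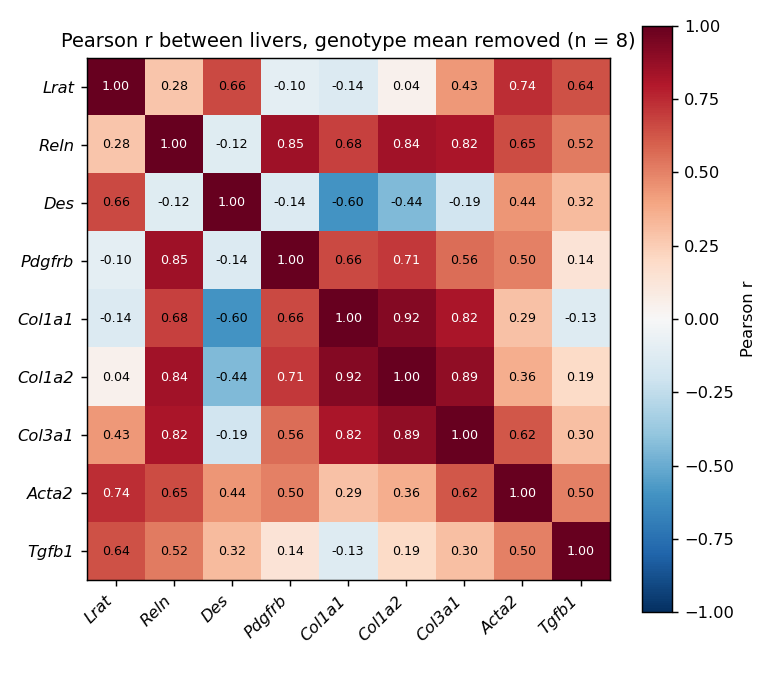
Pearson r between the log2 CPM of each pair of the 9 tested genes over the 8 livers after the mean of each genotype was removed, coloured from −1 (blue) to 1 (red). *Reln*, *Pdgfrb* and the collagen genes form a block with r from 0.56 to 0.92, and *Lrat* and *Des* lie outside it.

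High r values were frequent among all genes in these livers. The principal axis of log2 CPM over all genes held 54.1% of the variance, and after removal of the genotype means the median absolute r of a gene with it was 0.71. For *Col1a1* this r was −0.84, a size reached by 33.0% of all genes tested. *Col1a2* had −0.74 *Pdgfrb* −0.67 and *Reln* −0.53, whereas *Des* had 0.77 and *Lrat* 0.53. *Col3a1*, *Tgfb1* and *Acta2* followed the axis less, with −0.44, 0.17 and −0.02. The 3 livers with the highest *Col1a1*, LWT replicates 1 and 4 and LΔRbfox2 replicate 2, were together at one end of the axis, and LΔRbfox2 replicates 3 and 4 were at the other. The erythrocyte sum had an r of 0.88 with the axis, and the part of either measure in the member values was not tested.

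**Figure D4:**
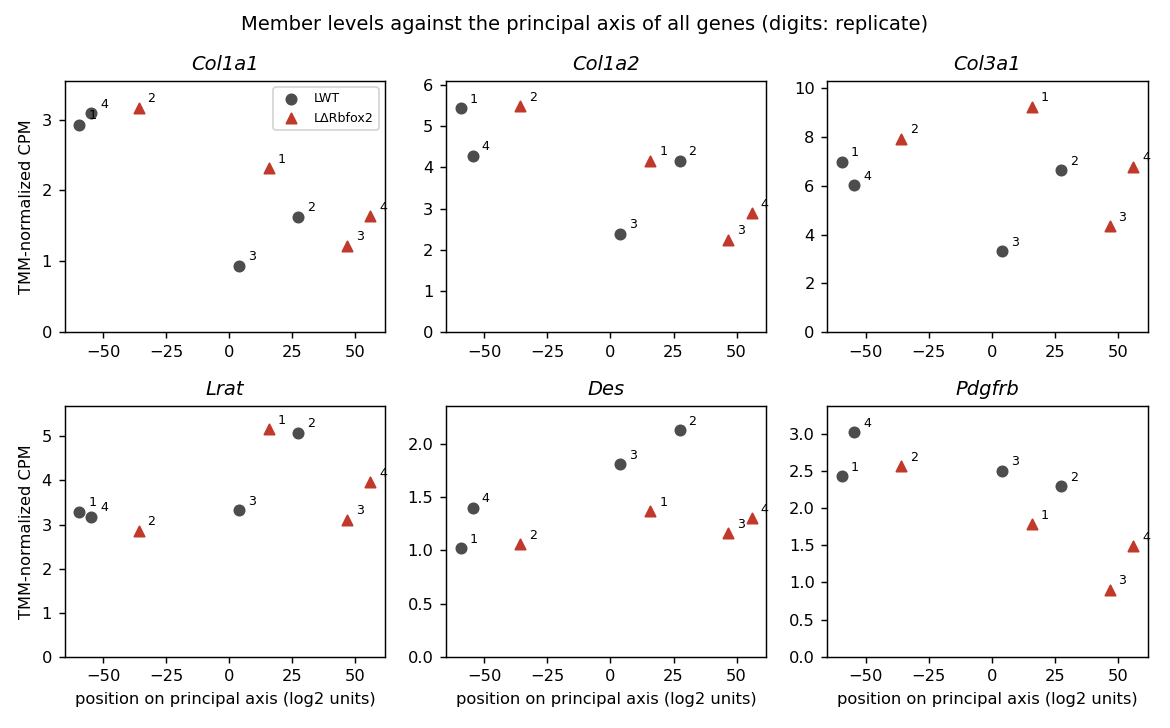
TMM-normalized CPM of 6 stellate cell and fibrosis genes (vertical, from 0) against the position of each liver on the principal axis of all genes (horizontal, log2 units, with arbitrary sign), for LWT (grey circles) and LΔRbfox2 (red triangles) livers labelled by replicate. The 3 livers at the left end have the highest *Col1a1*, and *Lrat* and *Des* do not share that order.

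Among the 11407 other genes with a mean of at least 1 CPM, those most like *Col1a1* over the 8 livers were *Fendrr*, *Kctd17* and *Morc4* (r = 0.98) and *Gm37324* and *Zfp668* (r = 0.97). *Col1a2* came in place 73 and *Col3a1* in place 954 of this order. The genes most like *Lrat* were *Ftl2-ps* (r = 0.97), *Txndc15* (r = 0.96), *Gm15590*, *Uchl5* and *Ilvbl* (r = 0.95). *Des*, the identity gene most like it, came in place 930.

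The wider set of 18 other stellate cell markers was described next, from lists of known genes. Of 17 tested, 0 were higher and 1 was lower in LΔRbfox2 livers at an unadjusted *P* under 0.05, where 7.95% of all genes tested were higher and 1.83% lower, and the median log2 fold change was −0.16. The 1 gene was *Vipr1*, a receptor for vasoactive intestinal peptide, at 11.6, 14.2, 14.5 and 12.5 CPM in LWT livers and 10.6, 10.4, 7.76 and 6.35 CPM in LΔRbfox2 livers. Every LΔRbfox2 liver was below every LWT liver (log2 fold change −0.59, standard error 0.20, edgeR unadjusted *P* = 0.0161, adjusted *P* = 0.504). *Dcn*, encoding the proteoglycan decorin and the marker of highest CPM, was between 39.5 and 96.8 CPM in LWT livers and between 55.9 and 102 CPM in LΔRbfox2 livers (log2 fold change 0.33, adjusted *P* = 0.649). The *Dcn* value was 0.16 without LWT replicate 1 and 0.63 without LWT replicate 2 (edgeR unadjusted *P* = 0.0413). *Gfap*, a filament gene also used as a stellate cell marker, had at most 12 counts and was not tested.

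Of 21 tested genes for other collagens and matrix proteins, 2 were higher and 0 lower at an unadjusted *P* under 0.05. Over all genes tested, 7.95% were higher and 1.83% lower, and the median log2 fold change of this list was −0.17. *Col12a1*, a collagen bound to the surface of collagen fibrils, was between 0.691 and 1.04 CPM in LWT livers and between 1.05 and 1.95 CPM in LΔRbfox2 livers, without overlap (log2 fold change 0.82, standard error 0.28, edgeR unadjusted *P* = 0.0159, adjusted *P* = 0.504). *Dpt*, encoding dermatopontin, which also binds collagen fibrils, was between 1.5 and 3.76 CPM and between 2.64 and 5.29 CPM (log2 fold change 0.96, unadjusted *P* = 0.0181, adjusted *P* = 0.504). *Fn1*, encoding fibronectin, which hepatocytes also secrete, had the highest CPM of the list. Its log2 fold change was −0.31 (adjusted *P* = 0.714), between −0.54 and −0.11 with a liver left out. The sign turned with the correction for GC content and gene length (0.014) and with 1 surrogate variable (0.35). Of 14 tested genes for collagen processing and cross-linking, 0 had an unadjusted *P* under 0.05 (median −0.13), and *P4hb*, the β subunit of prolyl 4-hydroxylase, had a log2 fold change of 0.23 (adjusted *P* = 0.655), or 0.077 without LΔRbfox2 replicate 3.

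Contractile genes and matrix proteases gave 0 genes among 7 and 8 tested at an unadjusted *P* under 0.05 by edgeR. Their median log2 fold changes were 0.0082 and −0.15. *Mylk*, the myosin light chain kinase, had the highest CPM of the contractile genes. It varied between 18.5 and 55.3 CPM in LWT livers and between 14.3 and 44.1 CPM in LΔRbfox2 livers. Its log2 fold change was −0.64 (adjusted *P* = 0.586), −1.14 without LΔRbfox2 replicate 2 and −0.37 without LWT replicate 4. With the correction for GC content and gene length it was −0.34, and with 1 surrogate variable it turned to 0.19. *Mmp19*, the most abundant metalloproteinase transcript of the list, was between 24.8 and 28.3 CPM and between 20.1 and 25.3 CPM (log2 fold change −0.23, adjusted *P* = 0.567). *Mmp8*, *Mmp9*, *Mmp12* and *Mmp13* had at most 13 counts in any liver and were not tested.

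For the pathways upstream of the members, 22 genes of transforming growth factor-β signalling were tested. At an unadjusted *P* under 0.05, 0 were higher and 2 lower, beside 7.95% and 1.83% of all genes tested. The median log2 fold change of these genes was −0.031. *Skil*, a repressor of SMAD transcription factors that is itself induced by the pathway, was between 9.76 and 13.6 CPM in LWT livers and between 4.71 and 10.9 CPM in LΔRbfox2 livers (log2 fold change −0.77, standard error 0.26, edgeR unadjusted *P* = 0.0178, adjusted *P* = 0.504). *Smad7*, an inhibitory SMAD also induced by the pathway, was between 7.52 and 14.9 CPM and between 4.65 and 9.54 CPM (log2 fold change −0.68, standard error 0.29, unadjusted *P* = 0.0448, adjusted *P* = 0.504). For both, LΔRbfox2 replicates 1, 2 and 3 were below every LWT liver and replicate 4 was inside the LWT range. *Itgb1*, an integrin subunit of receptors that bind the latent ligand, had a log2 fold change of 0.038 (adjusted *P* = 0.93), whose sign turned with the scaling. Of the 4 ligands of the platelet-derived growth factor family, 0 had an unadjusted *P* under 0.05 (median log2 fold change 0.14), and *Pdgfa* had a log2 fold change of 0.056 (adjusted *P* = 0.933).

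Retinoid handling genes, the pathway in which *Lrat* acts, included 2 higher and 1 lower at an unadjusted *P* under 0.05 among 13 tested. The shares of all genes tested were 7.95% and 1.83%, and the median log2 fold change of the list was −0.042. *Cyp26a1* and *Cyp26b1* encode enzymes that break down retinoic acid, and their values differed in opposite directions. *Cyp26b1* was at 1.91, 2.79, 2.89 and 3.73 CPM in LWT livers and 0.914, 1.69, 1.80 and 0.960 CPM in LΔRbfox2 livers, without overlap (log2 fold change −1.07, standard error 0.31, edgeR unadjusted *P* = 0.00633, adjusted *P* = 0.504). *Cyp26a1* was at 0.523, 0.904, 0.686 and 1.08 CPM in LWT livers and 2.58, 0.796, 1.77 and 1.67 CPM in LΔRbfox2 livers, with replicate 2 of the LΔRbfox2 livers inside the LWT range (log2 fold change 1.08, standard error 0.40, unadjusted *P* = 0.0176, adjusted *P* = 0.504). *Lpl*, the lipoprotein lipase, which also acts on retinyl esters in lipoproteins, was between 6.83 and 10.5 CPM and between 8.29 and 23.4 CPM (log2 fold change 0.70, unadjusted *P* = 0.0457, adjusted *P* = 0.504). Without LΔRbfox2 replicate 1 the *Lpl* value was 0.32 (edgeR unadjusted *P* = 0.191). *Rbp4*, the plasma carrier of retinol that hepatocytes secrete, had a log2 fold change of 0.52 (adjusted *P* = 0.521), between 0.39 and 0.69 with a liver left out, 0.28 with the correction for GC content and gene length and 0.11 with 1 surrogate variable. The difference between *Cyp26a1* and *Cyp26b1* was not tested as such.

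**Figure D5:**
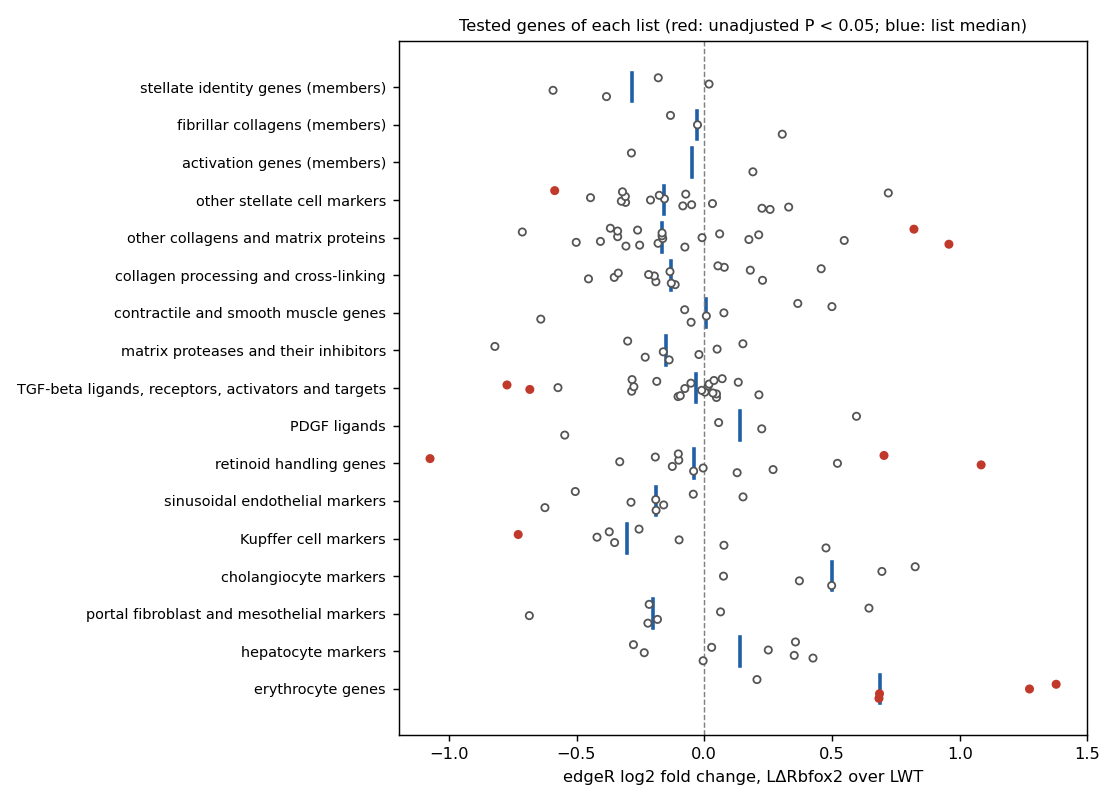
EdgeR log2 fold change of LΔRbfox2 over LWT livers for the tested genes of each list (points, spread vertically for legibility), filled in red at an unadjusted *P* under 0.05, with blue bars for list medians. The 3 member groups hold no red point and have medians from −0.28 to −0.026, and 4 of the 5 erythrocyte genes are red at the right.

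Markers of the cells that neighbour stellate cells are given beside these results as lists. Of 8 sinusoidal endothelial markers, 0 had an unadjusted *P* under 0.05 and 7 had a log2 fold change below 0 (median −0.19). Their summed level was between 87.8 and 117 CPM in LWT livers and between 75.8 and 102 CPM in LΔRbfox2 livers, and *Fcgr2b*, the Fc receptor of highest CPM, had a log2 fold change of −0.19 (adjusted *P* = 0.664), or −0.074 without LWT replicate 1. Of 8 Kupffer cell markers, 6 had a log2 fold change below 0 (median −0.30), with sums between 119 and 199 CPM and between 120 and 152 CPM. Against 1.83% of all genes tested, 1 of the 8 was lower at an unadjusted *P* under 0.05. This was *Clec4f*, a C-type lectin of resident liver macrophages, at 26.2, 23.8, 37 and 23.8 CPM in LWT livers and 23.0, 12.6, 20.2 and 11.1 CPM in LΔRbfox2 livers (log2 fold change −0.73, edgeR unadjusted *P* = 0.0207, adjusted *P* = 0.504), whereas *C6*, the complement component, had −0.35 (adjusted *P* = 0.567), −0.52 without LWT replicate 2 and −0.02 with 1 surrogate variable. Of 5 tested cholangiocyte markers 0 had an unadjusted *P* under 0.05, all 5 had a log2 fold change above 0 (median 0.50), and the sum of the 6 listed was between 14.7 and 26.1 CPM in LWT livers and between 16.6 and 61.4 CPM in LΔRbfox2 livers. *Spp1*, osteopontin, led this list at 55.3 CPM in LΔRbfox2 replicate 3 (log2 fold change 0.83, adjusted *P* = 0.525, and 0.23 without that liver).

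Portal fibroblasts and mesothelial cells are other sources of collagen. Of 6 tested markers of these cells 0 had an unadjusted *P* under 0.05 and 4 had a log2 fold change below 0 (median −0.20). The sum of the 8 listed was between 2.76 and 5.58 CPM in LWT livers and between 3.78 and 4.07 CPM in LΔRbfox2 livers, and *Gpm6a*, a membrane glycoprotein with the highest CPM and the highest fold change of the list, had a log2 fold change of 0.64 (adjusted *P* = 0.571, 1.11 without LWT replicate 2 and 0.16 with 1 surrogate variable). The defining genes *Gli1* and *Wt1* had at most 3 and 15 counts. No lymphocyte marker passed the count filter. The 8 hepatocyte markers gave 0 genes at an unadjusted *P* under 0.05 (median log2 fold change 0.14). *Alb* had 0.25 (adjusted *P* = 0.663), between 0.14 and 0.38 with a liver left out. The *Alb* value was 0.043 with the correction for GC content and gene length and −0.0035 with 1 surrogate variable. Of the 5 erythrocyte genes, 4 were higher by the same criterion in edgeR, against 7.95% of all genes tested. They were *Hbb-bs* (log2 fold change 1.38), *Hbb-bt* (1.27), *Hba-a2* (0.69) and *Hba-a1* (0.68), each with an edgeR adjusted *P* of 0.504. Globin genes of the same cluster are so alike that reads may be shared between them. The part of cell composition and of blood in the member values was not tested.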

How the data were processed

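Poly(A)-enriched RNA of 8 livers was sequenced as paired-end reads. The submitters' processing notes name CASAVA 1.8.4, TopHat2 2.0.11 and featureCounts with mm10/GRCm38. The authors deposited whole-number counts per gene without normalization, after alignment as first-strand libraries, and the strand and multi-mapping settings of the counting are not given in the sources used here. Columns were matched to livers by the label of each sample (0 unmatched), and 45143 of 46078 identifiers were found in GENCODE M21 on GRCm38. Libraries of the same genotype were compared, and none was a copy of another.

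Genotypes were compared with edgeR 4.0.16 under R 4.3.3 (filterByExpr defaults, minimum count 10 and minimum total 15, TMM, glmQLFit and glmQLFTest, genotype as the only term), with Benjamini–Hochberg adjustment over 13856 genes and a threshold of 0.05. Standard errors and 95% intervals came from limma-voom (limma 3.58.1), and exact permutation tests of CPM were two-sided. The members and all lists were chosen with earlier results of these data known. Besides the members and *Rbfox2*, the genes named are, for each list, up to 4 with the smallest unadjusted *P* under 0.05 and the one of highest mean CPM, and the 5 genes most like *Col1a1* and *Lrat* by r. A few untested genes were named to say which list members had few counts. Alternatives were other size factors, DESeq2 1.42.0, limma-voom, other filters, robust estimation, the replicate number as a block, a correction for GC content and length (lowess span 0.3), 1 surrogate variable (sva 3.50.0) and each liver left out. The tests were tried on simulated data. Figures used matplotlib 3.10.9.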

Additional observations from a re-analysis of the deposited data

Results flagged for a closer look

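Of 72 groups of 4 livers examined for a single liver far from the others (the members and other named genes in each genotype), 3 had one, where chance gives about 1 in 20, or 3.6. *Lrat* was at 5.08 CPM in LWT replicate 2 and between 3.18 and 3.33 CPM in the other LWT livers. *Tgfb1* was at 1.98 CPM in LWT replicate 4 and between 3.08 and 3.27 CPM in the others. *Dpt* was at 3.76 CPM in LWT replicate 2 and between 1.5 and 1.83 CPM in the others.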

How the results depend on the processing

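No member had an adjusted *P* of at most 0.05 under any alternative, and over all genes there were 10 such genes with the DESeq2 test and 0 otherwise. Members with a log2 fold change above 0 numbered 3, 5 with the correction for GC content and length, and between 1 (without LΔRbfox2 replicate 1) and 5 (without LΔRbfox2 replicate 3) with a liver left out. *Des*, *Pdgfrb*, *Col3a1* and *Tgfb1* kept their direction throughout. At an unadjusted *P* under 0.05 were *Pdgfrb* without LΔRbfox2 replicate 2, *Des* with 1 surrogate variable and *Col3a1* with the block and the correction. Of the 13 other named genes at an unadjusted *P* under 0.05, *Rbfox2* apart, 4 (*Vipr1*, *Cyp26b1*, *Hbb-bs* and *Hbb-bt*) kept it with each liver left out, and 9 did not (highest *P* from 0.0515 to 0.191, edgeR). Under all alternatives 1, *Cyp26b1*, kept it. These 13 genes were named for their small *P*, at a threshold that 9.79% of all genes tested passed by edgeR. The share of all genes that keep it with each liver left out was not determined. Other values moved by over 1.5 times without turning sign. With the GC and length correction these included *Col3a1* 0.53, *Gpm6a* 0.38, *Spp1* 0.36, *Rbp4* 0.28, *Dcn* 0.15, *Hbb-bs* 0.84, *Hbb-bt* 0.71, *Hba-a1* 0.36 and *Hba-a2* 0.32. With 1 surrogate variable they included *Pdgfrb* −0.33, *Reln* −0.054, *Des* −0.61, *Col3a1* 0.47, *Dpt* 0.52, *Fcgr2b* −0.085, *C6* −0.02, *Spp1* 0.076, *Hbb-bs* 0.61, *Hbb-bt* 0.51, *Hba-a1* 0.38 and *Hba-a2* 0.38.

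Log2 fold changes that turned sign were, with upper-quartile factors, *Lrat* −0.033 and *Itgb1* −0.012. With limma-voom they were *Lrat* −0.007, *Col1a1* 0.089 and *Acta2* −0.07, and without a filter *Lrat* −0.019 and *Itgb1* −0.00035. With the GC and length correction they were *Lrat* −0.044, *Reln* 0.096, *Col1a1* 0.27, *Col1a2* 0.15, *Fn1* 0.014 and *Itgb1* −0.028. With 1 surrogate variable they were *Lrat* −0.18, *Col1a1* 0.55, *Col1a2* 0.19, *Dcn* −0.082, *Fn1* 0.35, *P4hb* −0.053, *Mylk* 0.19, *Itgb1* −0.18 and *Alb* −0.0035. Leaving out each liver gave ranges of −0.17 to 0.21 for *Lrat*, −0.31 to 0.2 for *Col1a1*, −0.39 to 0.019 for *Col1a2*, −0.52 to 0.44 for *Acta2*, −0.051 to 0.14 for *Itgb1* and −0.089 to 0.29 for *Pdgfa*. The cause was not tested.

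By the labels, same-numbered livers share only a number, and whether they share more is not known. The correlations of their deviations were from −0.613 to 0.127. The replicate block turned *Col1a1* to 0.021 and *Acta2* to −0.079, and gave 0 genes called. The replicate block with the GC and length correction turned *Lrat* to −0.05, *Reln* to 0.16, *Col1a1* to 0.32, *Col1a2* to 0.19, *Acta2* to −0.27, *Fn1* to 0.022 and *Itgb1* to −0.034. Counts of *Acta2* (6 to 51) and *Timp1* (0 to 3) limit what can be seen of these genes.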
